A study of Homo sapiens with 12 samples.

Results

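The HOXB cluster is the block of homeobox genes on human chromosome 17 that runs from HOXB2 to HOXB13. The 9 genes described here are HOXB2, HOXB3, HOXB4, HOXB5, HOXB6, HOXB7, HOXB8, HOXB9 and HOXB13. They were taken by name from the m6A peak list of each condition and from the authors' deposited table of differential peaks. All 9 had a peak called on their gene model in control cells and 7 had one after knockdown. Over the whole lists, 18324 genes were printed with a control peak and 14170 with a knockdown peak. Only 4 (HOXB3, HOXB6, HOXB7 and HOXB8) had input RNA values, out of 6396 genes with such values, because these were listed for genes with a differential peak. The members had 17 of 39492 control peaks and 13 of 28888 knockdown peaks by the gene name printed with each peak.

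The cells were HGC27, an established line of undifferentiated human gastric carcinoma. Controls have the genotype label WT and are numbered Con, described as negative controls without naming what they carried. The other cells are described as FTO knockdown, although their genotype label is FTO-KO, and are numbered sh. FTO encodes an enzyme that removes the methyl group of N6-methyladenosine (m6A). Poly(A) RNA was fragmented, and libraries were made from fragments bound by an m6A antibody (IP) and from fragments before binding (input), with 3 of each kind per condition and 12 in all. The labels do not say whether numbered libraries came from separate cultures. The limma p-values of input RNA below therefore reflect spread among the libraries alone, and that spread may be technical. The authors' p-values are printed as deposited, and what spread they measure is not given in the sources used here.

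HOX genes encode transcription factors that give cells their position along the body axis. Within a cluster they lie on 1 strand in the order of their domains of action, with low-numbered genes acting towards the head and high-numbered ones towards the tail. Their proteins bind DNA together with cofactors of the PBX and MEIS families, and cluster activity is kept on by trithorax (MLL) complexes and off by Polycomb complexes. m6A is laid down on mRNA by a nuclear methyltransferase complex, is frequent near stop codons and in 3' UTRs, and is bound by reader proteins that affect splicing, decay and translation.

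Short RNAs and antisense transcripts lie between the HOXB coding genes, and 3 microRNA sequences are shown as landmarks of the map. The mature microRNAs are given with the seed, bases 2 to 8, in capitals, from RefSeq on GRCh38.p14.
hsa-miR-10a-5p: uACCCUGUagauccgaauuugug
hsa-miR-196a-5p: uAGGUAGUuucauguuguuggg
hsa-miR-3185: aGAAGAAGgcggucggucugcgg
The 3 seeds differ from one another. The hairpin of miR-10a (chr17:48579838-48579947, minus strand) lay 3077 bp from the nearest control peak, which was on HOXB4, and that of miR-196a-1 (chr17:48632490-48632559, minus strand) lay 6132 bp from the nearest peak of either list, on HOXB9. The hairpin of miR-3185 (chr17:48724408-48724475, minus strand) is shown because its name is printed with HOXB13 peaks, none of which covered it. The nearest control peak, called on PRAC2, was 22 bp away and the nearest knockdown peak, on HOXB13, was 288 bp away. A further sequence lies in the window that RefSeq's promoter table gives for the antisense RNA HOXB-AS3, within the 3' UTR interval of HOXB6 that had a differential m6A row. GGAC, the core of many m6A sites, was searched on both strands of that window (chr17:48595708-48596007, GRCh38.p14), which lies inside the RefSeq gene (48590420 to 48606414) and not at its outer end, and 1 match was found, on the HOXB6 strand. It is printed 5′ to 3′ from chr17:48595833-48595858 (minus strand) with the match in capitals.
HOXB6 3' UTR strand: gtcttagctctGGACgtgaaatactt
The match lay inside the interval of the differential row and outside the peaks of both lists. GGAC or its complement occurs in 87.4% of the 35116 RefSeq windows of 300 bp, so the match describes this sequence and no more.

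FTO itself, which checks the labels, had 5.48 to 5.68 FPKM in control inputs and 0.765 to 0.83 FPKM in knockdown inputs, a 7.00-fold difference of the means. FPKM is a fragment count scaled by transcript length and by library size. Listed FPKM summed to 74289 to 78461 per control library and 83712 to 86902 per knockdown library, and sequencing depth was unknown. Of 11 gastric and other epithelial markers, MUC1 had input values, at means of 1.24 and 1.43 FPKM, and 5 had a control peak (EPCAM, KRT8, CDH1, MUC1 and CLDN18). Fibroblast markers had a control peak in 7 of 7 cases and immune markers in 3 of 7. In the knockdown list, 4 epithelial, 5 fibroblast and 2 immune markers had a peak. Control peaks were printed with 18324 genes, and these counts are not read as cell type. The measured fibroblast markers moved in opposite directions by limma: COL1A1 fell from a mean of 169 to 147 FPKM (adjusted p = 0.0108) and THY1 rose from 12.5 to 15.0 FPKM (adjusted p = 0.00318). The part of these markers in the HOXB results was not tested.

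The gene name printed with a peak was not always the gene it was called on along this cluster. For each peak the lists give a gene name, with a distance to that gene's start, and in a separate column the Ensembl gene model on which the peak was called. The names differed for 7 of 21 control peaks between the ends of HOXB2 and HOXB13 and for 6 of 16 knockdown peaks, against 22.6% and 21.7% of all peaks. These counts are small, share several sites between the lists and were not tested against all peaks. HOXB4 had no peak under its own name in either list: its peaks were printed as HOXB3. The strongest HOXB6 peak of the knockdown list was printed as HOXB-AS3, and the HOXB-AS3 peak was printed as HOXB6. HOXB13 peaks at the end of its 3' UTR were printed as MIR3185. By gene model, the 9 HOXB genes had 18 control peaks, with 9199 exonic bp summed over peaks, and 15 knockdown peaks, with 6128. Bases shared by overlapping peaks are counted in each of them. Peaks are described by gene model from here on, with positions on GRCh38 and the authors' fold enrichment of IP over input.

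Most HOXB peaks were labelled as untranslated, with a single label for each whole peak. A label need not hold for all bases of a peak. The HOXB9 control peak, labelled 3' UTR, had 606 of its 863 exonic bp in the exon at the gene's 5' end. The 3' UTR label was on 12 of 18 control peaks (66.7%, exact 95% binomial interval 41% to 86.7%), against 47.6% of all peaks. It was on 9 of 15 knockdown peaks (60%, 32.3% to 83.7%), against 46.5% of all peaks. The 5' UTR label was on 5 control peaks (27.8%, 9.69% to 53.5%) and 5 knockdown peaks (33.3%, 11.8% to 61.6%), against 12.6% and 13.9% of all peaks. The remaining label, another exon, was on 1 control and 1 knockdown peak. All 4 intervals include the corresponding share of all peaks. Each label was compared alone, and the combined share of untranslated labels was not set against that of all peaks. Intervals cover counting error only, and neighbouring peaks share transcripts. The median enrichment of the members' peaks was 11.3 in each list, where all peaks had medians of 6.11 and 7.05.

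**Figure D1:**
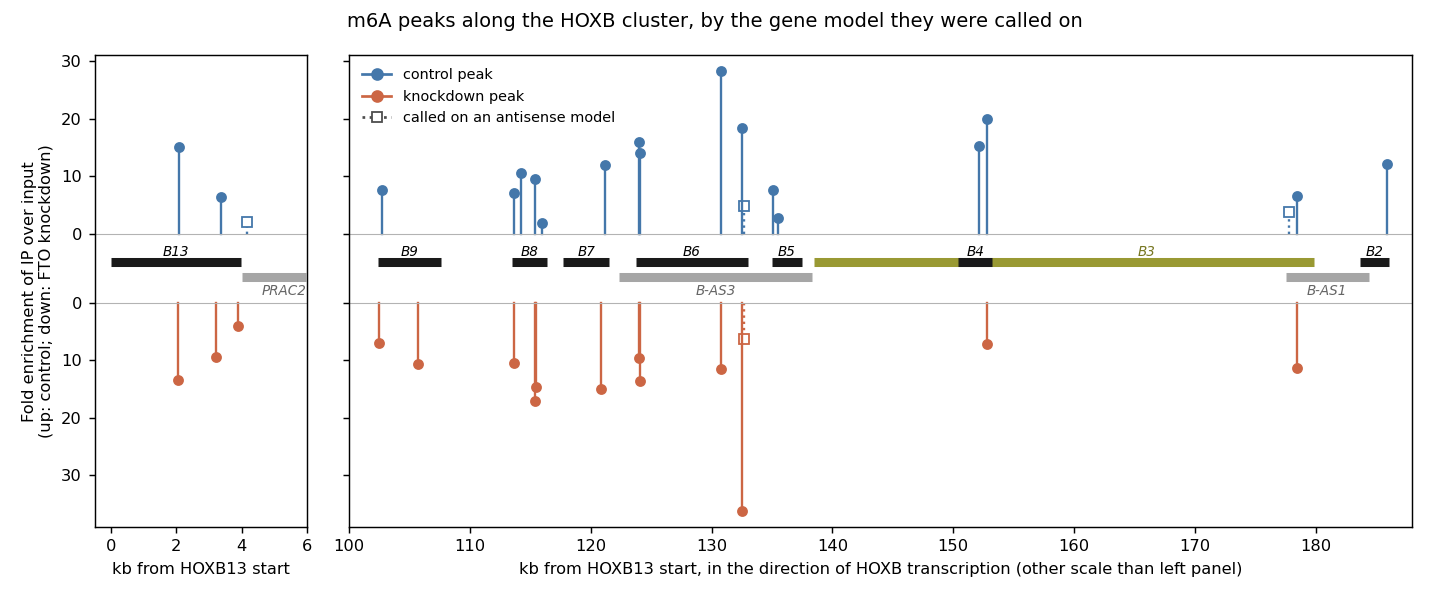
m6A peaks between HOXB13 and HOXB2 as distance from the HOXB13 start (x axis, kb, in panels of different scale, with the stretch between HOXB13 and HOXB9 left out) against the authors' fold enrichment (y axis, upward for control and downward for knockdown); black and olive bars are HOXB genes (HOXB3 in olive), grey bars antisense genes and open squares peaks called on antisense models. The highest control peak lies on HOXB6 at 28.3-fold and the highest knockdown peak on the HOXB6 3' UTR at 36.2-fold, while HOXB2 and HOXB5 have control peaks alone.

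At the 3' end of the cluster, HOXB2, HOXB3, HOXB4 and HOXB5 encode the factors of hindbrain and neck level identity. HOXB2 had a single control peak, in its 3' UTR from 48542773 to 48542980, at 12.2-fold enrichment and a weak log10 p of -3.15, and no knockdown peak. HOXB3 had a 3' UTR peak in both lists, from 48549978 to 48550666 in controls (6.55-fold) and from 48550098 to 48550517 after knockdown (11.3-fold). HOXB4, known for expanding blood stem cells when overexpressed, had 3' UTR peaks from 48575865 to 48576104 (19.9-fold) and from 48576552 to 48576761 (15.3-fold) in controls. The first of these had a knockdown counterpart of 210 bp at 7.28-fold, and the second had none. HOXB5 had control peaks in its 5' UTR, from 48593518 to 48593813 (7.64-fold), and, annotated only as exonic, from 48593222 to 48593340 (2.67-fold), and no knockdown peak. All HOXB4 peaks had a log10 p between -5.94 and -3.94.

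In the middle of the cluster, HOXB6, HOXB7 and HOXB8 act at trunk level. HOXB6 had 3 peaks in each list. Its 3' UTR peak ran from 48595871 to 48596649 in controls (18.3-fold) and from 48595901 to 48596589 after knockdown, where it was the highest of the cluster (36.2-fold, higher than 97.2% of that list). An internal 5' UTR peak spanned 48597004 to 48603867 in controls, 809 exonic bp in 3 blocks at 28.3-fold, and was listed as 390 bp from 48597785 to 48598174 after knockdown (11.5-fold). The remaining HOXB6 peak lay at the far 5' exon, from 48604483 to 48604992 in controls (16.0-fold) and from 48604513 to 48604962 after knockdown (9.64-fold). The HOXB3 model of the files reaches this exon too, although RefSeq ends the HOXB3 gene at 48590241. The HOXB3 control peak from 48604493 to 48604912 (14.0-fold) lay wholly within the HOXB6 peak, as did its knockdown peak from 48604523 to 48604912 (13.6-fold). The HOXB3 and HOXB6 calls at this exon are therefore the same stretch of sequence called on both genes and cannot be told apart.

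HOXB7, a factor often raised in carcinomas, had 1 peak per list, in its 3' UTR from 48607232 to 48607977 in controls (12-fold) and from 48607679 to 48608229 after knockdown (15.0-fold). The HOXB7 peaks shared 299 bp of 746 and 418 exonic bp. HOXB8, which restrains myeloid differentiation, had 4 control and 3 knockdown peaks. Its spliced peak, labelled 3' UTR, covered the same 296 exonic bp in both lists, from 48611583 to 48613479. The enrichment was 9.57-fold in controls and 17.2-fold after knockdown. Of the 296 bp, 274 lay from 48613206 to 48613479. The other 22 bp lay from 48611583 to 48611604, outside the RefSeq gene (48612346 to 48615292). The label does not show how much of the 274 bp is untranslated. A second HOXB8 peak shared 274 bp with the spliced peak in each list (10.6-fold and 14.6-fold). Another HOXB8 peak lay in the 5' UTR (7.13-fold and 10.5-fold). The remaining control peak of HOXB8, from 48612704 to 48612882, was the weakest of the members at 1.84-fold and had no knockdown counterpart.

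At the 5' end, HOXB9 acts on the thoracic skeleton and HOXB13, set apart from the other genes, is best known from prostate and distal colon. HOXB9 had 1 control peak of 863 exonic bp from 48622879 to 48626358 (7.63-fold). The knockdown list covered the same HOXB9 exons with 2 peaks, from 48622909 to 48625972 (10.6-fold) and from 48626150 to 48626358 (6.95-fold). HOXB13 had the peaks with the lowest p of the cluster, from 48726401 to 48726967 in controls (15.0-fold, log10 p -660) and from 48726490 to 48726937 after knockdown (13.4-fold, log10 p -721). Near the end of the HOXB13 3' UTR, a control peak from 48724882 to 48725895 (6.38-fold) matched a knockdown peak from 48725180 to 48725895 (9.54-fold) and also overlapped a weaker one from 48724763 to 48725001 (4.04-fold). Neither HOXB9 nor HOXB13 had a differential row, so no input RNA value was listed for either.

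Antisense models shared exons with HOXB peaks. HOXB-AS3, transcribed against HOXB5 and HOXB6, had 1 peak per list, over 389 bp in 4 blocks in controls (4.8-fold) and 359 bp after knockdown (6.32-fold). Of these, 305 bp lay inside the HOXB6 3' UTR peak, 78.4% of the control and 85% of the knockdown HOXB-AS3 peak. HOXB-AS1 had a control peak (3.76-fold) that shared 63 bp with the HOXB3 3' UTR peak. PRAC2, beside HOXB13, had a control peak of 175 bp (2.11-fold). No source used here states that strand was used in counting, so reads of a HOXB gene and its antisense partner cannot be told apart.

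Every HOXB peak of the knockdown list overlapped a control peak. By printed gene, 13 of 13 knockdown peaks overlapped a control peak by at least 1 bp (exact 95% binomial interval 75.3% to 100%), where 88.8% of all knockdown peaks did, a share within that interval. Of the 17 control peaks, 12 (70.6%, 44% to 89.7%) overlapped a knockdown peak, where 57.8% of all control peaks did. Taken by model, with the antisense peaks included, 14 of the 21 control peaks had a knockdown peak on the same model. The knockdown enrichment was the higher value at 9 of them and the lower at 5, and over all matched peaks it was the higher at 58.7%, so the HOXB share lies near that of all peaks. The 7 control peaks without a partner were those of HOXB2, HOXB5 (both), HOXB-AS1 and PRAC2, the second of HOXB4 and the weakest of HOXB8. There was 1 list per condition, and whether libraries were pooled for it is not given in the sources used here, so differences between lists have no replicate check.

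**Figure D2:**
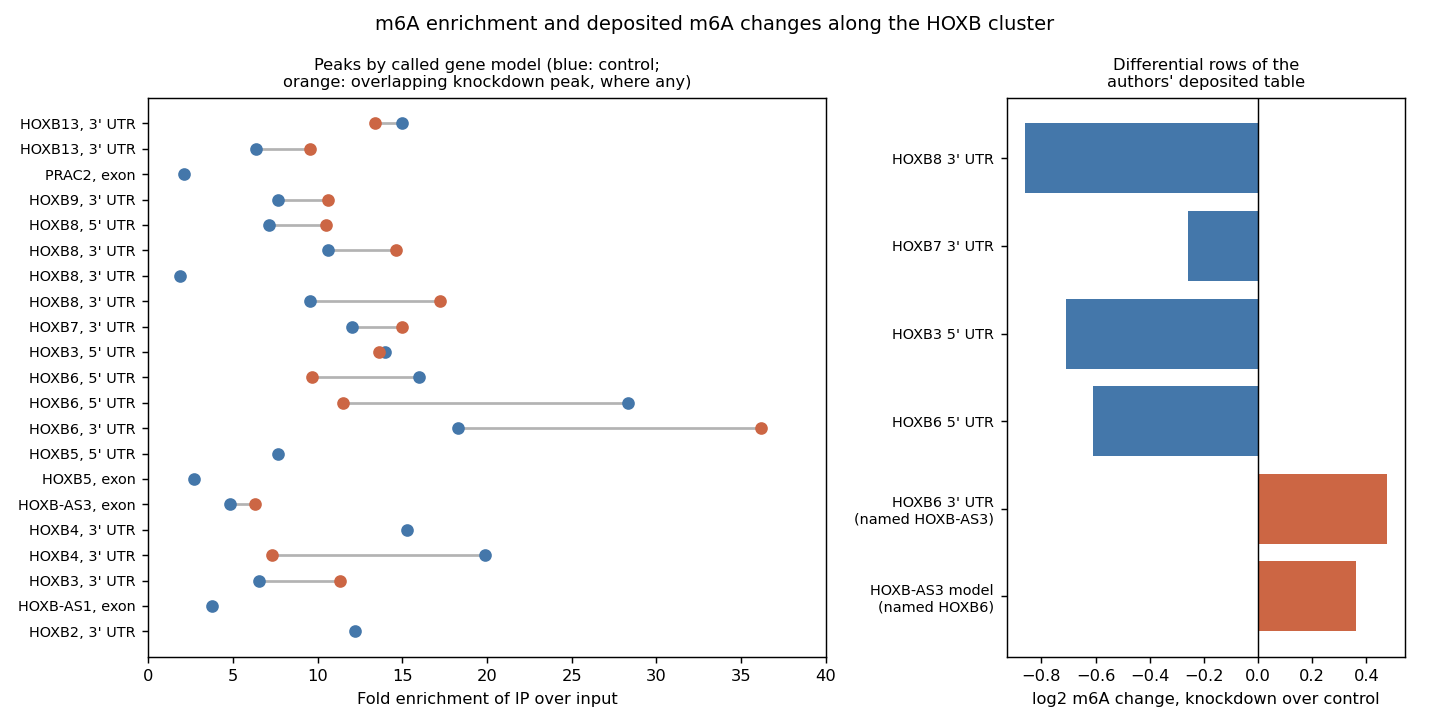
Left, fold enrichment (x axis) of each control peak along the cluster (blue) and of the knockdown peak on the same gene model that shares most bases with it (orange), in map order; right, the authors' log2 m6A change, knockdown over control, of the 6 differential rows. HOXB6 shows the widest spread, with its 3' UTR at 18.3-fold and 36.2-fold and its internal 5' UTR at 28.3-fold and 11.5-fold, and 4 of the 6 rows are lower after knockdown.

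In the authors' deposited table of differential peaks, 5 rows were printed with a HOXB coding gene, 1 higher and 4 lower after knockdown. Over all 8687 rows, 55.4% were higher and 44.6% lower. At the far 5' exon shared by HOXB6 and HOXB3, the authors' deposited table gave log2 changes of -0.61 (adjusted p = 0.0195, printed with HOXB6) and -0.71 (adjusted p = 0.00955, printed with HOXB3). These 2 rows describe the same bases and count as 1 site. At the HOXB6 3' UTR, the authors' deposited table gave a rise of 0.47 on the log2 scale from 48595811 to 48596619 (adjusted p = 0.0017, printed with HOXB-AS3). The overlapping HOXB-AS3 row, printed with HOXB6, stood at 0.36 and had an adjusted p of 0.0708 in the authors' deposited table. The rows at the far 5' exon and at the 3' UTR interval thus had opposite signs. Neither can be given to HOXB6 alone, since the first is shared with HOXB3 and the second with HOXB-AS3, and the difference between them was not tested.

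The other rows were on HOXB7 and HOXB8. The HOXB7 3' UTR row, from 48607232 to 48608229, had a log2 change of -0.26 in the authors' deposited table (adjusted p = 0.00275), while the enrichment printed in the lists was 12 in controls and 15.0 after knockdown. The row and the lists thus had opposite signs for HOXB7. They do not cover the same bases: the row spans both list peaks, of 746 and 418 exonic bp, which share 299 bp. Over 4066 rows that overlapped 1 peak of the same printed gene in each list, 92.6% had the same sign in both. The direction of the deposited values was itself read from these pairs, so that share is no independent check. The HOXB8 row, the largest of the cluster, stood at -0.86 in the authors' deposited table (adjusted p = 0.0372) and was the 1.84-fold control peak of 179 bp. The 3 larger HOXB8 peaks had no differential row. At an adjusted p of at most 0.05, 4 of the 5 rows printed with a HOXB coding gene remained, all lower after knockdown. Of all rows, 88.2% met that limit. The HOXB6 and HOXB3 rows among the 4 are the same far 5' exon. The rise at the HOXB6 3' UTR (adjusted p = 0.0017 in the authors' deposited table) met the limit too. It is outside this count because it was printed with HOXB-AS3. Absolute log2 changes had a median of 0.611 in the 5 rows and 0.691 in all rows.

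Input RNA was listed for HOXB3, HOXB6, HOXB7 and HOXB8. HOXB7 was the most abundant of the 4, at 3.79, 3.68 and 3.92 FPKM in the controls and 4.95, 5.31 and 5.80 FPKM after knockdown. All knockdown libraries stood above all controls, 1.41-fold by the means. With limma on log2(FPKM + 1) and Benjamini-Hochberg adjustment over the 4515 genes that averaged 1 FPKM or more, HOXB7 rose by 0.40 (SE 0.0581, adjusted p = 0.000623). That scale understates the change of genes with low FPKM.

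HOXB8 moved the other way. Its control libraries had 1.87, 1.55 and 1.77 FPKM, and its knockdown libraries had 0.981, 0.941 and 0.579 FPKM. The groups did not overlap, and the knockdown mean was 2.07-fold lower. On the same scale limma gave HOXB8 a log2 change of -0.58 (SE 0.0965, adjusted p = 0.00128).

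For HOXB6 the control libraries gave 1.45, 1.72 and 1.45 FPKM and the knockdown libraries 1.36, 1.59 and 1.81 FPKM. Its groups overlapped and it did not pass the test (log2 change 0.02, SE 0.0794, limma adjusted p = 0.804). After quantile normalization it passed as a rise of 0.20 (limma adjusted p = 0.0476), and over the 11 alternatives its adjusted p ranged from 0.0476 to 0.997. HOXB3 had 0.59, 0.545 and 0.417 FPKM in the controls and 0.319, 0.423 and 0.309 FPKM after knockdown, with overlapping groups. Its mean of 0.434 FPKM was under the limit for the test, and without that limit limma gave HOXB3 an adjusted p of 0.0552. By mean FPKM the order in controls was HOXB7 (3.8), HOXB8 (1.73), HOXB6 (1.54) and HOXB3 (0.517), and the values of HOXB8 and HOXB6 overlapped. After knockdown it was HOXB7 (5.35), HOXB6 (1.58), HOXB8 (0.834) and HOXB3 (0.35), and no neighbours in that order overlapped. HOXB-AS3 was listed at 0.0433 to 0.154 FPKM over the 6 libraries, with overlapping groups.

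**Figure D3:**
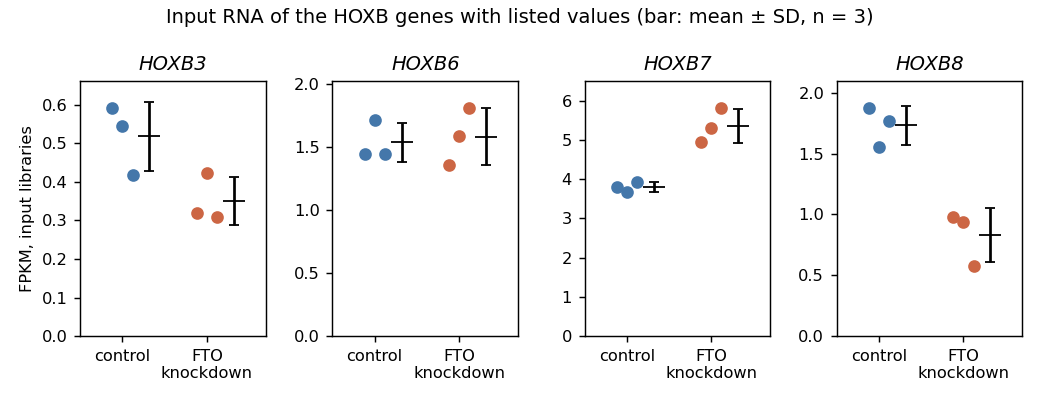
Input FPKM (y axis, starting at 0, with its own scale in each panel) of the 4 HOXB genes with listed values, 1 point per library, with the mean ± SD beside each group of 3. HOXB7 knockdown points all lie above the controls, HOXB8 knockdown points all lie below them, and the groups of HOXB3 and HOXB6 overlap.

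In all, 2 of the 3 tested members changed, 1 in each direction, where limma called 62.4% of all tested genes (24.5% up and 37.9% down), and groups did not overlap in 67.8% of tested genes (27.3% higher and 40.5% lower after knockdown). A count of 2 of 3 lies near that background. The balance of all calls depended on scaling: 39.3% of called genes rose as deposited, 52.5% after quantile normalization and 55.4% after median-centring. The calls and directions of HOXB7 and HOXB8 were the same under all 3 scalings. The authors' deposited table gave adjusted p-values of 0.0053 for HOXB7, 0.00818 for HOXB8, 0.24 for HOXB3 and 0.576 for HOXB6. The 3 tested genes whose log2 values followed HOXB7 most closely were TENT5A, XRCC6 and BIRC5, with Pearson correlations of 0.9982, 0.9966 and 0.9956 over the 6 input libraries; these points share their libraries and a difference between conditions.

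HOX genes of the other clusters also moved in both directions. Of 29 genes, 14 had input values and 11 were tested: HOXA10 rose, HOXA4, HOXC10, HOXC13 and HOXD9 fell and 6 did not pass. Among all tested genes, 62.4% were called by limma (24.5% up and 37.9% down). HOXA10 went from 2.45 ± 0.381 to 3.30 ± 0.186 FPKM and HOXC13 from 9.53 ± 0.556 to 7.31 ± 0.263 FPKM (limma adjusted p = 0.00932 and 0.000802; SD, n = 3). The count of 1 up and 4 down turned to 4 up and 2 down after quantile normalization and to 2 up and 1 down after median-centring, and without the limit on FPKM it was 1 up and 6 down of 14, so no direction is given for these genes as a group. Their median log2 change as deposited was 0.0021, that of the 3 tested HOXB genes 0.0245 and that of all tested genes -0.069. The median of all tested genes was 0.0104 after quantile normalization and 0.0237 after median-centring.

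Genes that act with HOX proteins or on HOX clusters were partly measured. Over the cofactor and regulator lists together, limma called 19 of 30 tested genes (14 up and 5 down). It called 62.4% of all tested genes (24.5% up and 37.9% down), so the total count lies near that share. Among 5 tested cofactors of the TALE homeodomain class, PBX2 (16.8 ± 0.655 to 12.7 ± 0.589 FPKM; limma adjusted p = 0.000331; SD, n = 3) and MEIS2 fell and PKNOX1 rose, from 1.31 to 1.64 FPKM (limma adjusted p = 0.01). That count became 1 up and 1 down under quantile normalization, and under median-centring too. Of 9 trithorax and MLL genes, 5 rose and 1 fell. Those that rose were the H3K4 methyltransferase genes KMT2A, KMT2B and KMT2D, together with ASH1L and the H3K79 methyltransferase gene DOT1L (limma adjusted p = 0.000182; 6.55 ± 0.127 against 9.19 ± 0.511 FPKM, SD, n = 3). PSIP1, whose product tethers the MLL-menin complex to chromatin, fell (limma adjusted p = 7.67e-05), with control FPKM of 9.23 ± 0.97 and knockdown FPKM of 4.45 ± 0.445 (SD, n = 3). Quantile normalization gave 6 up and 1 down in this list and median-centring 7 up and 1 down. Without the limit on FPKM there were 4 up and 1 down, and ASH1L did not pass (limma adjusted p = 0.077, against 0.0427).

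Of 12 tested Polycomb genes, 6 rose and 1 fell, where limma called 62.4% of all tested genes (24.5% up and 37.9% down). PHF19, a PRC2 subunit that binds H3K36 methylation, rose from 4.55 ± 0.316 to 8.26 ± 0.45 FPKM and the histone-binding RBBP4 from 14.9 ± 0.332 to 21.0 ± 0.58 FPKM (limma adjusted p = 4.12e-05 and 5.31e-05; SD, n = 3). CBX2, CBX6 and CBX8, which read H3K27 methylation, rose too, and PHC3 fell. The remaining call was RBBP7, whose groups overlapped (limma adjusted p = 0.0469). Quantile normalization gave 7 up and 1 down here and median-centring 8 up and 1 down. Without the limit on FPKM there were 5 up and 1 down, and RBBP7 did not pass (limma adjusted p = 0.0735). Among 4 genes of retinoic acid signalling and cluster insulation, the insulator gene CTCF rose from 5.73 ± 0.069 to 7.33 ± 0.333 FPKM and the receptor gene RXRB from 6.10 ± 0.533 to 7.80 ± 0.246 FPKM (limma adjusted p = 0.000662 and 0.00281; SD, n = 3). The retinoic acid receptor gene RARG fell (limma adjusted p = 0.00825) but not after median-centring. The medians of the log2 changes were -0.074 for TALE cofactors, 0.149 for trithorax genes, 0.136 for Polycomb genes and 0.198 for the retinoic acid list. That of all tested genes was -0.069 as deposited, 0.0104 after quantile normalization and 0.0237 after median-centring. Of the 30 genes in these lists, 26 averaged 5 FPKM or more. At that limit 51.8% of all called genes rose, against 39.3% in the main fit. The lists were not set against genes of like FPKM. Of the genes that flank the cluster, NFE2L1 was the only one tested and fell from 70.1 ± 1.51 to 59.7 ± 1.61 FPKM (limma adjusted p = 0.00143; SD, n = 3).

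**Figure D4:**
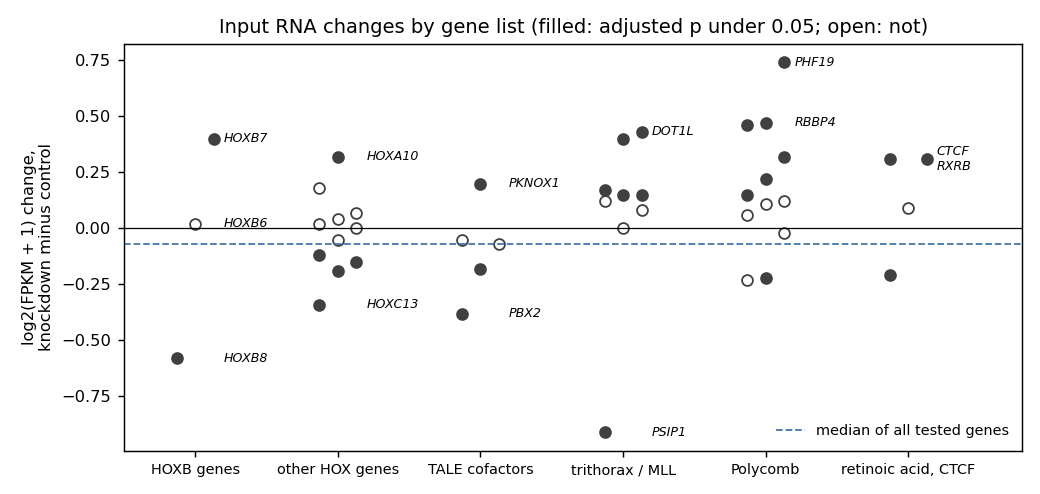
Change of input RNA on the log2(FPKM + 1) scale, knockdown minus control (y axis), for each tested gene of 6 lists (x axis); filled points passed limma at an adjusted p under 0.05, open points did not, and the dashed line is the median of all tested genes. HOXB7 and HOXB8 lie on opposite sides of 0, and PSIP1 shows the largest fall and PHF19 the largest rise of the genes plotted.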

How the data were processed

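Peak lists, a table of differential peaks and input FPKM were used, as deposited. Per the submitters' processing notes, which give no roles, the tools were Bowtie 0.12.2, HISAT2 2.0 and StringTie 1.3.0 and the build was mm8, a mouse build; gene identifiers and positions were human and the ends of several HOXB peaks met gene ends in RefSeq for GRCh38.p14, so positions are read as GRCh38. The peak caller is not given in the sources used here. Block sizes showed that starts in the files count from 0, and all positions are printed counted from 1. FPKM per input library were computed by the authors, per the file headers. Per the file headers, the authors also gave the log2 fold change of m6A with a p-value and a score (log10 of the adjusted p), and, for each peak, the ratio of IP over input and log10 scores. Deposited log2 values were control over knockdown and were turned: for expression by recomputing them (largest deviation 1.46e-13), for m6A from a Spearman correlation of -0.858 between those values and the log2 enrichment ratio (knockdown over control) of 4066 overlapped peak pairs. 283 of 8970 rows without a gene name or a valid p and 3 repeated knockdown peaks were left out. The largest p of the differential rows used was 0.049, so the table holds rows past a threshold near 0.05.

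Samples were grouped by title. Expression was tested with limma 3.58.1 (trend, two-sided) in R 4.3.3 on log2(FPKM + 1), keeping genes that averaged 1 FPKM or more, with Benjamini-Hochberg adjustment over all 4515 and a threshold of 0.05. The script was tested on simulated data. IP libraries had no values per library here, so m6A was not tested anew. Overlap was counted on exonic blocks, on the same strand where both strands were known (96.6% of control and 96.8% of knockdown peaks). Members and gene lists were chosen with earlier results of these data known. Named genes were all members, the 2 genes of each list with the smallest p and the 3 most like HOXB7; further list genes are named as those making up a count. Gene symbols for models came from Ensembl identifiers.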

Additional observations from a re-analysis of the deposited data

How the results depend on the processing

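HOXB7 and HOXB8 kept their direction and their call under all 11 alternatives that could be fitted: another pseudocount, no limit on FPKM, quantile normalization, median-centring, the replicate block and each of 6 libraries left out. The adjusted p in limma ranged from 0.000215 to 0.00347 for HOXB7 and from 0.00204 to 0.0116 for HOXB8. A limit of 5 FPKM left no HOXB gene to test, and it gave 1603 calls among all genes (830 up, 773 down) against 2819; fewer genes were tested there. Without each library in turn, calls among all genes ranged from 2413 to 3005, among cofactors and cluster regulators from 14 to 20 (19 with all libraries), and 2 among HOXB genes throughout. With the replicate number as a block there were 2747 calls in all, 18 among cofactors and regulators and 2 among HOXB genes. Deviations of libraries with the same number correlated at -0.0769, 0.0278 and 0.0247, so the numbers do not pair the libraries. The HOXB3 difference of -0.17 on the log2 scale was -0.45 with a pseudocount of 0.1, -0.07 after median-centring and -0.05 after quantile normalization. MUC1 passed as a rise after quantile normalization (adjusted p = 0.0109), median-centring (0.0433) and without knockdown library 2 (0.0332), and COL1A1 lost its call after median-centring (adjusted p = 0.147); the cause was not tested.

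By position the cluster held 21 control and 16 knockdown peaks. With at least 4-fold enrichment 15 control and 13 knockdown peaks remained by printed gene, and 12 and 13 had a log10 adjusted p of -5 or lower. With 50% reciprocal overlap the shared peaks were 58.8% of control and 76.9% of knockdown peaks. No differential row of a HOXB gene had both an adjusted p of at most 0.01 and an absolute log2 change of at least 1 (0 of 5). The share of all rows that met both limits was not counted. Their median absolute log2 change was 0.691, so most rows miss the second limit. Counting peaks by gene model and differential rows by position (6 rows, 2 higher and 4 lower) was chosen after seeing the data. Depth was unknown, so a missing knockdown peak on HOXB2 or HOXB5 is not shown to be a loss of m6A.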

Other observations

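HOXB8 belongs to a paralog group with HOXC8 and HOXD8, and all 3 genes were lower after knockdown by about the same factor; the group was picked after its values were seen and was given no test of its own. HOXC8, which the study's title names, had control values of 1.23, 0.969 and 1.14 FPKM and knockdown values of 0.575, 0.448 and 0.558 FPKM, 2.11-fold lower by the means. HOXD8 had control values of 0.787, 1.04 and 0.569 FPKM and knockdown values of 0.287, 0.339 and 0.445 FPKM, 2.24-fold lower. HOXB8 was 2.07-fold lower. The groups did not overlap in any of the 3 genes. Among all genes averaging 1 FPKM or more, they did not overlap in 67.8%, and 40.5% were lower after knockdown. HOXC8 and HOXD8 had means under 1 FPKM and were left out of the main test; without that limit limma gave adjusted p-values of 0.00227 for HOXC8, 0.0249 for HOXD8 and 0.00673 for HOXB8. Without that limit, 1972 of all 6396 genes were called lower by limma. Neither HOXC8 nor HOXD8 was fitted after quantile normalization or median-centring, so their dependence on scaling was not tested. Paralogs share homeobox sequence, and whether reads were split between them was not tested.

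Other paralogs of the measured HOXB genes did not pass in limma: HOXC6, of the group of HOXB6, stood at 3.83 ± 0.209 and 3.67 ± 0.137 FPKM, and HOXA3, of the group of HOXB3, at 6.03 ± 0.116 and 6.36 ± 0.257 FPKM (SD, n = 3; limma adjusted p = 0.446 and 0.222).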
